A study of Mus musculus with 44 samples.

Results

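The genes described here are 32 named members of cholesterol and lipid synthesis, from the first steps towards mevalonate to the sterol sensors, the cholesterol transporters and the enzymes that make and desaturate fatty acids. Members were the probe sets that carry 1 single gene symbol of that list: 66 probe sets for 30 genes, while Acat2 and Soat1 had none and were not analysed here. All 30 genes passed the filter on dim signals, and they stood among 11969 genes tested of 18193 with such a probe set. They were followed in CH12.LX, a mouse lymphoma line of B cell origin, which is 1 transformed line and not normal B cells.

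Cells of 5 groups were activated with lipopolysaccharide (LPS), a B cell stimulus from the outer membrane of bacteria, and given 10 nM TCDD (2,3,7,8-tetrachlorodibenzo-p-dioxin, a ligand of the aryl hydrocarbon receptor, AhR) for 8, 12, 24, 36 or 48 h. A second set of 5 groups had the same LPS and times with the vehicle, dimethyl sulfoxide (DMSO) at 0.01%, and 1 group was untreated cells at 0 h. Each group had 4 Affymetrix arrays, 1 for each of 4 days, and the replicate number stands for the day. The labels do not say that the untreated cells had LPS, so LPS, vehicle and time in culture cannot be told apart in comparisons with them, and all 5 such comparisons share the same untreated arrays.

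Cholesterol is built from acetyl-CoA through mevalonate, isoprenoid diphosphates, squalene and lanosterol. When sterols in the endoplasmic reticulum run low, Scap carries the SREBP transcription factors (Srebf1, Srebf2) to the Golgi, where they are cut free to switch on synthesis genes through sterol regulatory elements, often beside CCAAT boxes bound by NF-Y. The Insig proteins hold Scap back when sterols are plentiful, and the oxysterol receptors LXR then raise the efflux pumps Abca1 and Abcg1 as well as Srebf1 and Scd1. Dividing and antibody-secreting B cells draw on the pathway for new membrane.

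Promoter sequences were taken from RefSeq (GRCm38.p6, 250 bases before to 50 after the gene start, gene strand), and 22 of the 30 genes matched, with 30 promoters. The 4 promoters printed belong to members on which the results below turn: Hmgcs1 and Msmo1 for their steep early fall, Cyp51 for its difference under TCDD and Insig2 for its late rise. They are read 5′ to 3′, and capitals mark CCAAT on either strand (ATTGG on the other) and, in Hmgcs1 alone of the 22 genes, a match to the sterol regulatory element TCACNCCAC. The Hmgcs1 promoter lies at chr13:119690101-119690400 (+), that of Cyp51 at chr5:4104648-4104947 (-), that of Msmo1 at chr8:64733529-64733828 (-) and the Insig2 promoter that holds CCAAT at chr1:121332540-121332839 (-).
Hmgcs1: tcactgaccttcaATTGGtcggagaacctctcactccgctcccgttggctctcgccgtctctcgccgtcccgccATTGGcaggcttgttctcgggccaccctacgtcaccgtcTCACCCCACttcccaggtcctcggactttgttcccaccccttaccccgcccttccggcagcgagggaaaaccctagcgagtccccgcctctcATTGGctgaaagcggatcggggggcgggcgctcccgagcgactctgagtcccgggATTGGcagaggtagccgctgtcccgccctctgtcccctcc
Cyp51: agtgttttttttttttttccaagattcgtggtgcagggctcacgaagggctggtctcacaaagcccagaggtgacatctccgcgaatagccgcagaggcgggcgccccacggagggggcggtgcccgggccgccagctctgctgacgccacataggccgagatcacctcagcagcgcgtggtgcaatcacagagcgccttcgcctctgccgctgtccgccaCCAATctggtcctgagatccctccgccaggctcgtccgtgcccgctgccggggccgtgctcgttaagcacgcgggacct
Msmo1: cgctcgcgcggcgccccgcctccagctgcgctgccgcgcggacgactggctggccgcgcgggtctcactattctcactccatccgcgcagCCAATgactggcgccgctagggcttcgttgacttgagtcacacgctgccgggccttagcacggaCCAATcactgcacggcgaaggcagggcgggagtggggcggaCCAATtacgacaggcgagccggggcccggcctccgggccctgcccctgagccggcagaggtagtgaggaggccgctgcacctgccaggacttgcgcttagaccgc
Insig2: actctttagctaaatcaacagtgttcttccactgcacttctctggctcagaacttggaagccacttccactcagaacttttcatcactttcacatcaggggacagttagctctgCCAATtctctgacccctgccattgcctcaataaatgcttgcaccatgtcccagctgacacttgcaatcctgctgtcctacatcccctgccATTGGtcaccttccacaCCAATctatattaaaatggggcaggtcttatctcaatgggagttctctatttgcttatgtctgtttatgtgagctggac

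The element TCACCCCAC of Hmgcs1 spans positions -137 to -129 from the start, between CCAAT boxes at -176 and -45. CCAAT was found on either strand in 20 of the 22 member genes (90.9%), against 42.7% of 9717 tested genes with a promoter, where 1 promoter of a gene sufficed. Counted per promoter, it was in 21 of 30 member promoters (70%) and in 37.4% of all 32851 promoters. TCACNCCAC was present in 4.55% of the member genes, 1.41% of tested genes and 1.24% of all promoters. GCGTG, the core of an AhR site, was in 14 of 22 member genes (63.6%) against 54.5% of tested genes. Capitals do not mark it: the printed Cyp51 promoter holds it at -75 to -71 and, on the other strand, at 39 to 43. The printed Msmo1 promoter holds it at -120 to -116 on the other strand. The LXR motif, AGGTCA repeated after any 4 bases on either strand, was in none of the 22 genes and in 0.0152% of all promoters. Such matches describe letters within these windows and say nothing of binding.

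Median array signals ran from 45.2 to 99.2, and the number of arrays limits the precision. Of the B cell markers with a probe set, 7 of 7 passed the filter. Cyp1a1, the classical AhR target, was higher with TCDD by 4.50 to 6.01 on the log2 scale at the 5 times, and its TCDD and DMSO arrays did not overlap at any time. Replicates 3 and 4 of the untreated cells, replicate 4 of DMSO at 12 h and replicate 2 of DMSO at 48 h stood apart. They did so in median signal or in the 3′ to 5′ ratio of a control transcript. Some counts are therefore also given without these 4 arrays. All levels below are log2 of signal plus 16, a scale that understates changes of dim genes, and all changes are differences on that scale with standard errors from limma (n = 4 arrays per group). A gene is called higher or lower at a Benjamini-Hochberg adjusted p under 0.05 over all 11969 genes, and less RNA per cell and fewer cells of a type cannot be told apart in bulk RNA.

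The members fell together in the first 8 h. At 8 h 23 of 30 were lower in DMSO cells than in untreated cells and 0 were higher, where 24.6% of all genes were called (11.2% higher, 13.4% lower). The median change of the members was -0.87, against -0.02 over all genes tested, and 29 of 30 lay below 0. The ranges of the 4 DMSO and the 4 untreated arrays lay apart for 21 members, as they did for 20.8% of all genes. Without the 4 arrays standing apart 20 members were lower, where 2474 of all genes were called, against 2945 with all arrays.

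**Figure D1:**
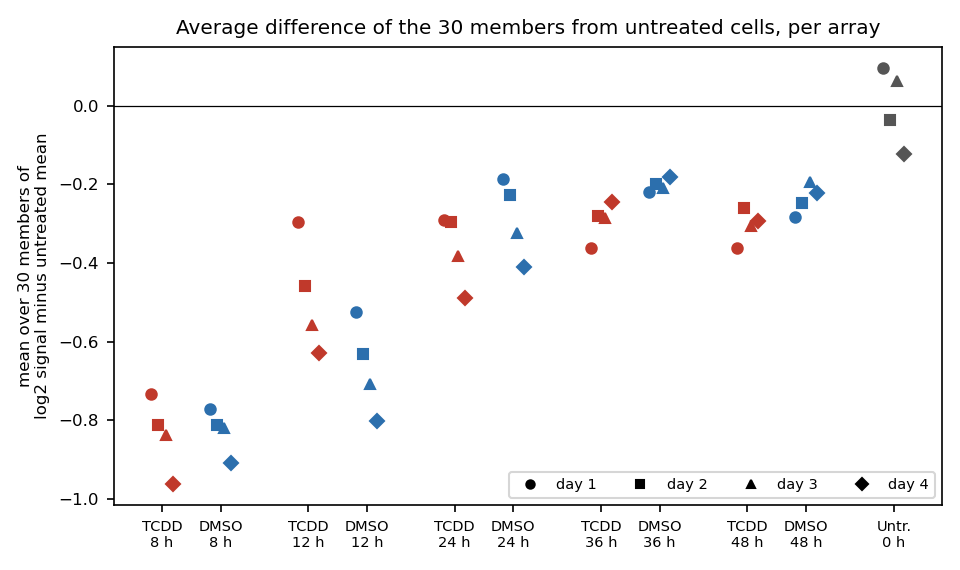
Mean over the 30 members of the log2 signal minus the untreated mean, 1 point per array, with TCDD in red left of DMSO in blue at each time, untreated cells in grey and the marker shape giving the day. Every treated array lies below the 4 untreated arrays, the 8 h groups are lowest, and at 12 h each TCDD point is above the DMSO point of its day.

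Among the mevalonate and isoprenoid enzymes 5 of 7 were lower at 8 h. Hmgcs1, the synthase that makes HMG-CoA, had 11.25, 10.90, 10.75 and 10.77 in DMSO cells at 8 h, against 13.14, 12.37, 12.69 and 12.44 in untreated cells. The groups lay more than 1 log2 unit apart, and the change was -1.74 ± 0.16 (adjusted p = 1.33e-10). Idi1, the isomerase that interconverts the isoprenoid units, had 11.46, 10.95, 11.04 and 10.86 in DMSO cells and 12.51, 11.87, 12.27 and 12.26 in untreated cells, again without overlap (-1.15 ± 0.14). The decarboxylase Mvd (-1.21), the squalene synthase Fdft1 (-0.94) and the farnesyl diphosphate synthase Fdps (-0.93) were lower as well. The mevalonate kinase Mvk (-0.30 ± 0.27) and the phosphomevalonate kinase Pmvk (-0.29 ± 0.11) were not called.

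In the sterol branch 8 of 10 were lower at 8 h. Msmo1, which oxidises the methyl groups of sterol intermediates, had 9.75, 9.46, 8.87 and 9.08 in DMSO cells, against 11.61, 10.79, 10.62 and 10.26 in untreated cells (-1.53 ± 0.23). Cyp51, the lanosterol demethylase, had 10.68, 10.56, 10.45 and 10.41 in DMSO cells, against 12.25, 11.78, 11.77 and 11.74 in untreated cells (-1.36 ± 0.11, adjusted p = 6.73e-12). In both genes every DMSO array was below every untreated array. The squalene epoxidase Sqle (-0.98), the sterol dehydrogenase Nsdhl (-0.80), the desaturase Sc5d (-0.66), the lanosterol synthase Lss (-0.61), the last-step reductase Dhcr7 (-0.60) and the sterol isomerase Ebp (-0.32) completed the 8. The reductase Tm7sf2 (-0.26 ± 0.18) and the ketoreductase Hsd17b7 (-0.08 ± 0.16) were not called.

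Of the 5 sensing genes 3 were lower at 8 h. Insig1, itself a target of the SREBP factors, had 9.13, 8.69, 7.88 and 7.75 in DMSO cells, against 10.51, 9.76, 9.99 and 9.22 in untreated cells (-1.51 ± 0.31). The groups were just apart, and within each group the arrays differed among themselves by more than 1 log2 unit. Srebf2 (-1.07 ± 0.14) and Srebf1 (-0.98 ± 0.13) were lower, while Scap (-0.12 ± 0.17) and Insig2 (0.22 ± 0.16) were not called.

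The 3 genes of intracellular cholesterol transport were all lower at 8 h, by less: the sterol carrier Stard4 (-0.50) and the lysosomal export proteins Npc2 (-0.41) and Npc1 (-0.28). Npc2 had 12.18, 12.32, 12.87 and 12.63 in DMSO cells and 12.58, 12.75, 13.08 and 13.22 in untreated cells. Npc1 had 8.28, 8.24, 8.30 and 8.23 in DMSO cells and 8.70, 8.61, 8.60 and 8.26 in untreated cells. The groups overlapped in both Npc genes.

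Both efflux pumps were lower at 8 h. Abca1, which loads cholesterol onto apolipoproteins, had 6.49, 6.60, 6.21 and 6.61 in DMSO cells, against 7.88, 8.24, 8.10 and 7.64 in untreated cells (-1.49 ± 0.18). Abcg1, which passes cholesterol to lipoprotein particles, had 8.44, 8.51, 9.20 and 9.33 in DMSO cells, against 10.03, 10.28, 10.50 and 10.12 in untreated cells (-1.36 ± 0.24). Neither pump overlapped between the groups.

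The stearoyl-CoA desaturase Scd2 showed the largest fall of all members at 8 h. It had 12.08, 11.64, 11.18 and 11.31 in DMSO cells, against 14.03, 13.80, 14.01 and 13.84 in untreated cells (-2.37 ± 0.22, adjusted p = 1.61e-10). Its paralogue Scd1 had 12.57, 12.39, 12.80 and 12.80 in DMSO cells and 13.85, 13.69, 13.93 and 13.73 in untreated cells (-1.16 ± 0.09). Both desaturases were well below their untreated range, whereas the fatty acid synthase Fasn did not pass (-0.03 ± 0.12).

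The other probe sets of the genes called at 8 h mostly gave the same call. Of 22 such probe sets past the filter, for 14 genes, 16 were called lower, 6 were not called and 0 were called higher. Later the share was smaller: 10 of 17 other probe sets at 24 h and 10 of 16 at 36 h were not called. With TCDD 4 of 6 gave the same call at 12 h and 0 of 2 at 24 h, and none gave the opposite call at any of the 5 times. The summed signal of 7 B cell markers was 33739 to 40653 in DMSO cells at 8 h, against 49816 to 56173 in untreated cells, and its part in the falls was not tested.

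**Figure D2:**
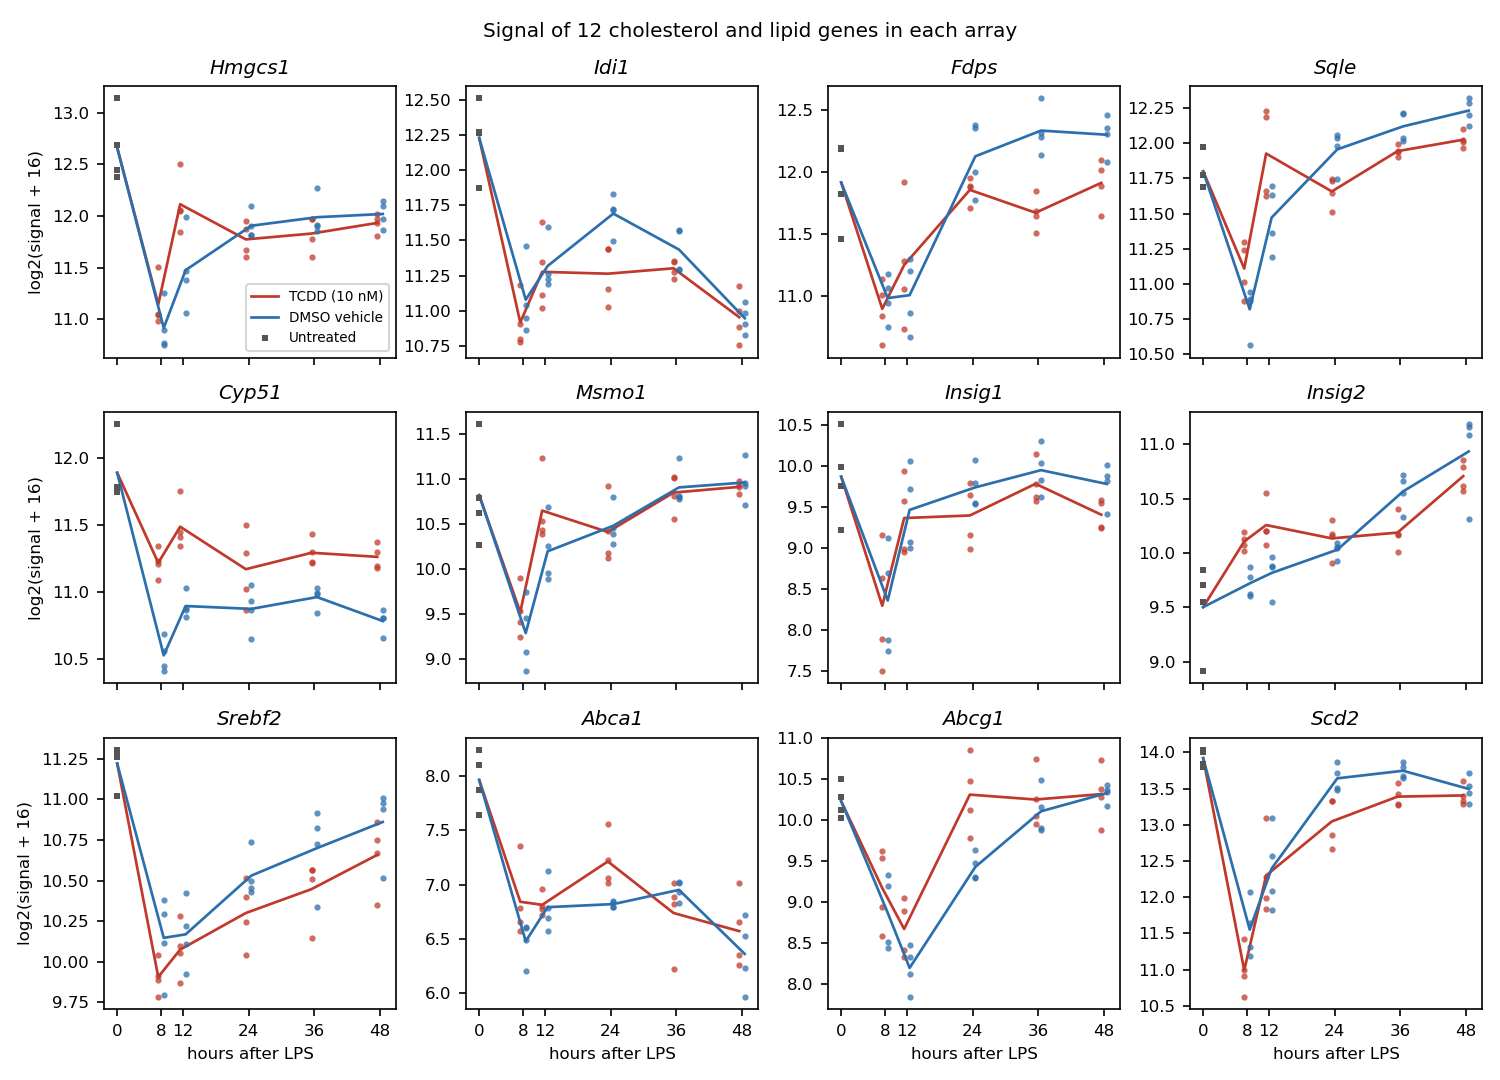
Log2 signal of 12 members against hours after LPS, with 1 point per array and lines through the group means from the untreated mean at 0 h, TCDD in red and drawn left of DMSO in blue. Most panels show a low at 8 h or 12 h, while Insig2 climbs to its highest DMSO mean at 48 h and Cyp51 keeps its TCDD line above the DMSO line.

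After 8 h the members parted. The lowest DMSO mean fell at 8 h in 17 members, at 12 h in 8 and at 48 h in 5. Between 8 h and 12 h 3 members rose in DMSO cells and 1 fell (1.44% of all genes called, 0.526% higher and 0.911% lower). Msmo1 rose by 0.91, Scd2 by 0.84 and Sqle by 0.65, and Scd1 fell by 0.45. The ranges lay apart for 6 members and for 6.18% of all genes. With the replicate number as a block 7 rose and 2 fell, where 4.11% of all genes were called. Leaving out the arrays of day 2, day 3 or day 4 left 1 call each, and without the 4 arrays standing apart 6 rose and 1 fell. Over all genes these settings called 45, 81, 59 and 209, against 172 with all arrays.

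At 12 h 20 members were lower than in untreated cells and 0 were higher (24.8% of all genes called, 11% higher and 13.8% lower). The ranges lay apart for 16 members and for 19% of all genes. Of the 20, 19 had been called lower at 8 h too, and the other was Pmvk (-0.36 ± 0.11). The count of calls was 12 with only the arrays compared and 16 without the 4 arrays standing apart. Over all genes these settings called 1306 and 2230, against 2968 in the fit reported here. Abcg1 was then at its lowest, with 7.85, 8.34, 8.13 and 8.48 in DMSO cells, and stood -2.04 ± 0.24 from the untreated mean. Scd1 was lowest at 12 h too, with 12.25, 11.97, 12.21 and 12.34 in DMSO cells (-1.61 ± 0.09). In both genes no DMSO array at 12 h reached the untreated range.

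The recovery came between 12 h and 24 h, when 11 members rose and 0 fell in DMSO cells (9.98% of all genes called, 6.12% higher and 3.85% lower). Scd2 rose by 1.25, with 13.86, 13.72, 13.50 and 13.48 at 24 h, against 13.10, 12.57, 12.09 and 11.82 at 12 h. Abcg1 rose by 1.23 and Fdps by 1.12, each without overlap, and the ranges lay apart for 12 members in all (14.7% of all genes). Scd1 (0.76), Nsdhl (0.66), Mvd (0.57), Fdft1 (0.56), Srebf1 (0.51), Sqle (0.48), Pmvk (0.39) and Ebp (0.26) were the others. Without the arrays of day 3 the count was 6, without those of day 4 it was 7, and with only the arrays compared it was 5. Over all genes these settings called 668, 774 and 489, against 1194 in the fit reported here.

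By 24 h 1 member was higher and 11 were lower than in untreated cells (19.8% of all genes called, 9.38% higher and 10.4% lower). That was 0 and 5 without day 3, 0 and 7 with only the arrays compared, and 0 and 8 without the 4 arrays standing apart. Over all genes these settings called 1610, 1210 and 1844, against 2365 in the fit reported here. At 36 h 2 were higher and 10 lower (31.3% of all genes called, 15.4% higher and 15.9% lower). At 48 h 3 were higher and 11 lower (43.9% called, 23.4% higher and 20.5% lower). The ranges lay apart for 11 members at 24 h (19% of all genes), 13 at 36 h (24.8%) and 13 at 48 h (31.9%). The median change of the members was -0.25 at 24 h, -0.18 at 36 h and -0.24 at 48 h. At 48 h the share of members called was close to that of all genes.

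Some members stayed low. Hmgcs1, Idi1, Cyp51, Sc5d, Srebf2, Abca1 and Scd1 were lower than untreated at all 5 times. Cyp51 stayed within -0.93 and -1.36 of the untreated mean throughout. Idi1 was partly restored at 24 h (-0.54) and then lower again at 48 h (-1.29 ± 0.14), with 10.91, 10.83, 10.99 and 11.06 in DMSO cells. Abca1 was lowest at 48 h, with 6.53, 5.97, 6.72 and 6.23, which is -1.60 ± 0.18 from untreated.

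Others returned to the untreated level or passed it. Msmo1, lower at 8 h and 12 h, was 0.14 ± 0.23 from untreated at 48 h, and Abcg1 was 0.10 ± 0.24 from it. Sqle passed the untreated level, with 12.20, 12.12, 12.29 and 12.32 in DMSO cells at 48 h against 11.97, 11.77, 11.69 and 11.77 in untreated cells (0.43 ± 0.12, adjusted p = 0.00296). Fdft1 was higher at 48 h as well, at 11.16, 11.05, 11.01 and 10.81 against 10.96, 10.32, 10.87 and 9.99 in untreated cells (0.47 ± 0.19), though its groups overlapped.

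A few members were called late without being called at 8 h. Insig2 rose by 0.53 ± 0.16 at 24 h, 1.06 ± 0.16 at 36 h and 1.43 ± 0.16 at 48 h over untreated cells. At 48 h it had 11.19, 10.31, 11.08 and 11.16 in DMSO cells, against 9.84, 9.55, 8.92 and 9.70 in untreated cells. The groups did not overlap although the day 2 array, 1 of the 4 standing apart, was low. Fasn fell late, with changes of -0.47 at 24 h, -0.77 at 36 h and -1.10 ± 0.12 at 48 h, and Hsd17b7 (-0.78 ± 0.16) and Scap (-0.48 ± 0.17) were called lower at 48 h only among the 5 times.

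Steps between later DMSO times were fewer. From 24 h to 36 h 1 member rose and 0 fell (10.0% of all genes called, 5.31% higher and 4.71% lower), namely Insig2 by 0.54, and the ranges lay apart for 5 (16.4% of all genes). The count of calls was 5 with the replicate block (18% of all genes called) and 0 without any 1 day. Leaving out day 1, 2, 3 or 4 called 865, 334, 619 and 772 of all genes, against 1200 with all arrays. From 36 h to 48 h 2 rose and 4 fell (16.5% of all genes called, 9.46% higher and 7.02% lower), and the ranges lay apart for 4 members (16% of all genes). Npc2 rose by 0.53, with 13.10, 13.24, 13.46 and 13.22 at 48 h and 12.58, 12.67, 12.90 and 12.77 at 36 h, and Npc1 rose by 0.35. Abca1 (-0.59), Idi1 (-0.49), Fasn (-0.33) and Scd1 (-0.26) fell. The replicate block gave 11 calls for this step (25.7% of all genes called), only the arrays compared gave 0, and leaving out day 2 or day 3 gave 3 and 2. Over all genes the last 3 settings called 361, 780 and 1107, against 1972 in the fit reported here.

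**Figure D3:**
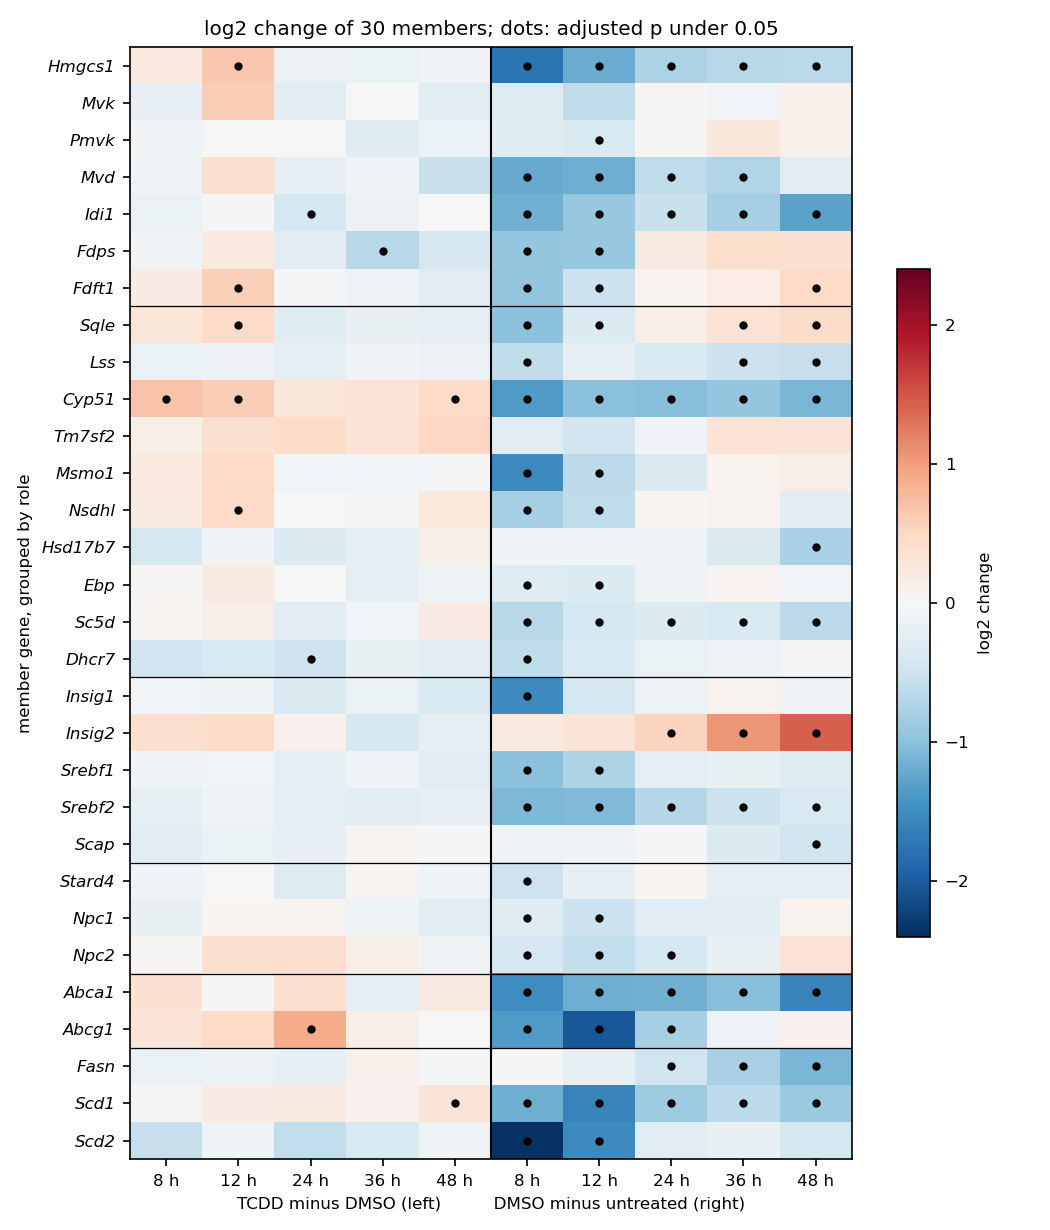
Log2 change of the 30 members, TCDD minus DMSO on the left and DMSO minus untreated on the right, at the 5 times, in role groups separated by lines and with dots at an adjusted p under 0.05. The right side is mostly blue at 8 h and 12 h with 23 and 20 dots, and the left side is paler, with 5 dots at 12 h, all on higher members.

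In the fit without the day, 1 to 5 of the 30 members were called with TCDD at each time, where 4.14% to 9.22% of all genes were. With the replicate block the counts were 3 to 12, where 8.38% to 16.3% of all genes were called. The largest difference was that of Abcg1 at 24 h (0.88), and the next was that of Cyp51 at 8 h (0.69). At 8 h 1 member was called, Cyp51, where 4.14% of all genes were called (2.73% higher, 1.41% lower). Cyp51 had 11.34, 11.23, 11.09 and 11.21 in TCDD cells, against 10.68, 10.56, 10.45 and 10.41 in DMSO cells, a gain of 0.69 ± 0.11 (1.61-fold, adjusted p = 6.37e-05). No TCDD array reached down to the DMSO range, and 5 members had ranges apart at 8 h (10.4% of all genes). With the replicate block 3 members were called, where 8.38% of all genes were, with Hsd17b7 (-0.43 ± 0.11) and Dhcr7 (-0.47 ± 0.13) lower. Without the 4 arrays standing apart 2 were higher and 1 lower, where 697 of all genes were called, against 496 with all arrays.

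At 12 h 5 members were higher with TCDD and 0 lower, where 9.22% of all genes were called (6.07% higher, 3.15% lower). The members' median difference was 0.16, against 0.01 over all genes tested. All 5 stood higher in each of the 4 same-day pairs. They were 2 of the 7 mevalonate and isoprenoid enzymes and 3 of the 10 of the sterol branch, and a difference between roles was not tested.

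Hmgcs1 had 12.51, 12.05, 11.84 and 12.06 in TCDD cells at 12 h, against 11.99, 11.47, 11.38 and 11.06 in DMSO cells (0.64 ± 0.16, adjusted p = 0.00841). Cyp51 had 11.75, 11.44, 11.34 and 11.41 in TCDD cells, against 11.03, 10.86, 10.81 and 10.88 in DMSO cells (0.59 ± 0.11, adjusted p = 0.000366). The 2 groups were apart for Cyp51 and overlapped for Hmgcs1, whose highest DMSO array is that of day 1. The ranges lay apart for 4 members at 12 h (13.2% of all genes).

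Fdft1 had 11.03, 10.51, 10.46 and 10.33 in TCDD cells at 12 h and 10.47, 9.99, 10.09 and 9.50 in DMSO cells (0.57 ± 0.19, adjusted p = 0.0489). Sqle had 12.23, 12.19, 11.63 and 11.66 in TCDD cells and 11.64, 11.69, 11.37 and 11.19 in DMSO cells (0.45 ± 0.12, adjusted p = 0.00985). Nsdhl had 9.81, 9.83, 9.57 and 9.82 in TCDD cells and 9.62, 9.27, 9.26 and 9.03 in DMSO cells (0.46 ± 0.12, adjusted p = 0.0113). The groups overlapped in all 3, with day 1 of DMSO among the highest of its group.

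With the replicate block 12 members were higher at 12 h and 0 lower, where 16.3% of all genes were called. The added ones were Mvk (0.59), Abcg1 (0.48), Msmo1 (0.45), Insig2 (0.44), Npc2 (0.41), Mvd (0.38) and Ebp (0.21). The Mvk difference includes a low DMSO array, 6.13 on day 4 against 7.524 to 7.704 in the others. That array is 1 of the 4 standing apart, and without these Mvk was not called. The count was 1 without day 2, 3 without day 3, 2 without day 4 and 1 with only the arrays compared. Over all genes these settings called 510, 704, 637 and 403, against 1103 in the fit reported here. Hmgcs1 without day 4 was 0.52 (adjusted p = 0.145). Without the 4 arrays standing apart 4 members were called higher, namely Cyp51, Nsdhl, Insig2 and Npc2. Hmgcs1, Fdft1 and Sqle were not called there, where 1222 of all genes were. With the probe sets of each gene averaged, 3 members were higher and 1 was lower at 12 h, where 925 of all genes were called. The higher ones were Sqle, Cyp51 and Nsdhl, and the lower one was Lss (-0.65, adjusted p = 0.0244 in limma). Hmgcs1 and Fdft1 were not called there, and the difference of Fdft1 came to 0.15.

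At 24 h 1 member was higher with TCDD and 2 were lower (7.59% of all genes called, 4.80% higher and 2.79% lower). Abcg1 had 9.79, 10.13, 10.48 and 10.86 in TCDD cells, against 9.30, 9.31, 9.47 and 9.64 in DMSO cells (0.88 ± 0.24, 1.84-fold, adjusted p = 0.0131). Idi1 had 11.44, 11.44, 11.15 and 11.02 in TCDD cells and 11.83, 11.72, 11.72 and 11.50 in DMSO cells (-0.43 ± 0.14, adjusted p = 0.0493). Dhcr7 had 8.70, 8.97, 8.39 and 8.67 in TCDD cells and 9.23, 9.28, 9.13 and 9.07 in DMSO cells (-0.50 ± 0.14, adjusted p = 0.0235). The Idi1 call was lost under 10 of 16 alternative settings, and those of Abcg1 and Dhcr7 under 4 each. In each of the 3 genes the 2 groups lay apart, as they did for 10 members in all and 15.1% of all genes.

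The members' median difference at 24 h was -0.20, against -0.02 over all genes tested, with 22 of 30 below 0. With the replicate block (13.6% of all genes called) 3 were higher, adding Npc2 (0.39) and Cyp51 (0.30), and 8 were lower, adding Scd2 (-0.59), Hsd17b7 (-0.32), Stard4 (-0.31), Sqle (-0.30), Sc5d (-0.25) and Srebf2 (-0.23). The count was 1 without day 2, 0 without day 3 and 1 without day 4. Over all genes 475, 583 and 599 were called there, against 909 with all arrays.

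At 36 h 1 member was called (5.91% of all genes called, 3.50% higher and 2.41% lower). Fdps had 11.51, 11.85, 11.65 and 11.69 in TCDD cells, against 12.32, 12.60, 12.29 and 12.14 in DMSO cells (-0.66 ± 0.18, adjusted p = 0.0222). The 2 groups did not overlap, as in 4 members and 12.4% of all genes. The mean of its 2 probe sets gave -0.27, but the other probe set did not pass the filter on dim signals. The Fdps call was lost without day 1, day 2 or day 3 (adjusted p = 0.0599, 0.193 and 0.133). Over all genes these omissions left 461, 279 and 384 calls, against 707 with all arrays. With the replicate block (10.9% of all genes called) Cyp51 (0.33) was higher, and Fdps, Srebf2 (-0.25) and Ebp (-0.21) were lower.

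At 48 h 2 members were higher and 0 lower (8.85% of all genes called, 4.30% higher and 4.55% lower). Cyp51 had 11.19, 11.18, 11.37 and 11.29 in TCDD cells, against 10.80, 10.66, 10.86 and 10.80 in DMSO cells (0.48 ± 0.11, adjusted p = 0.004). Scd1 had 13.22, 13.28, 13.26 and 13.18 in TCDD cells, against 12.84, 12.98, 12.80 and 13.04 in DMSO cells (0.32 ± 0.09, adjusted p = 0.0206). Both genes lay apart between the groups, as did 5 members in all and 11.7% of all genes. With the replicate block (15.6% of all genes called) Tm7sf2 (0.50) was also higher and Mvd (-0.54) and Npc1 (-0.27) were lower. The count was 1 without day 1, 0 without day 2 and 0 without day 3. Over all genes these omissions left 768, 447 and 631 calls, against 1059 with all arrays.

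Cyp51 was the only member whose TCDD mean lay above its DMSO mean at all 5 times and that was called at more than 1 of them. Its differences were 0.69, 0.59, 0.30, 0.33 and 0.48 at 8, 12, 24, 36 and 48 h, and with the replicate block it was called at all 5. A change of its difference over time was not called (adjusted p = 0.375). Tm7sf2, the sterol reductase of the next step, also lay above at all 5 times, by 0.14, 0.38, 0.45, 0.32 and 0.50. In the fit without the day Tm7sf2 was not called at any time. It was called at 48 h with the replicate block and at 24 h with only the arrays compared.

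Whether the TCDD difference itself changed with time was tested with an F test over the 5 times. Sqle (adjusted p = 0.00381) and Insig2 (adjusted p = 0.0299) were called, 2 of 30 members, where 6.99% of all genes were called. The Sqle difference was 0.29, 0.45, -0.30, -0.18 and -0.21 at the 5 times, and that of Insig2 was 0.39, 0.44, 0.10, -0.38 and -0.23. Both were higher with TCDD by sign at 8 h and 12 h and lower at 36 h and 48 h.

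At 8 h Insig2 had 10.08, 10.02, 10.20 and 10.13 in TCDD cells and 9.78, 9.61, 9.87 and 9.62 in DMSO cells. At 36 h it had 10.40, 10.18, 10.16 and 10.01 in TCDD cells and 10.67, 10.55, 10.72 and 10.33 in DMSO cells. The groups lay apart at 8 h in 1 direction and overlapped at 36 h in the other. With the replicate block 11 members were called in this F test (16% of all genes), among them Fdft1, Hmgcs1 and Mvd, and leaving out 1 day left 0 or 1 call.

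A summed signal of genes listed as myeloid markers was higher with TCDD. All cultures were of CH12.LX, a line of B cell origin. Sums of marker genes alone do not show that cells of another type were present. The summed signal of 6 myeloid markers was 2159 to 2576 in TCDD cells and 1071 to 1194 in DMSO cells at 12 h, and it was higher with TCDD in every array at each of the 5 times. Csf1r had the highest group mean of the 6 (group means 7.65 to 10.64), followed by Adgre1 (7.31 to 9.21). Such a sum weighs the brightest genes most, and the direction of each marker was not examined. Of the 6, 4 passed the filter. Lyz2 and Itgam did not, with highest group means of 6.08 and 5.80 on a scale whose lowest value is 4. Of the 5 T cell markers 3 passed. The summed signal of all 5 was 634 to 809 in TCDD cells and 722 to 882 in DMSO cells at 8 h, and 656 to 879 in TCDD cells and 454 to 678 in DMSO cells at 48 h. The ranges overlapped at both times, and the TCDD mean was the lower one at 8 h and the higher one at 48 h. The part of either list in the members' differences was not tested.

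Other genes of the pathway, from a second list of 31, gave 28 tested. Of these 0 were higher and 7 lower in DMSO cells at 8 h than in untreated cells. Over all genes 24.6% were called, 11.2% higher and 13.4% lower. The median change of the 28 was -0.18, against -0.87 for the members. Among those called, the largest falls were those of Acsl3 (-1.52) and the desaturase Fads1 (-1.24), followed by the phosphatidate phosphatase Lpin1 (-1.19) and the elongase Elovl5 (-0.72). At 48 h 7 were higher and 10 lower, led by the apolipoprotein Apoe (-2.20), where 43.9% of all genes were called (23.4% higher, 20.5% lower). With TCDD 0 were higher and 1 lower at 8 h, 2 and 2 at 12 h, 0 and 4 at 24 h, 0 and 3 at 36 h, and 1 and 3 at 48 h. Over all genes the shares called were 4.14%, 9.22%, 7.59%, 5.91% and 8.85% at these times. The fatty acid binding protein Fabp5 was lower with TCDD at 12, 24, 36 and 48 h, with changes of -0.32, -0.57, -0.48 and -0.45, and the citrate lyase Acly was higher by 0.47 at 48 h.

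The members also differed between days, within groups. With the replicate number as a term, 20 of 30 members were called, where 54.6% of all genes were called, and that share was 13 of 30 when the probe sets of a gene were averaged. Msmo1 and Hsd17b7 were highest on day 1 in 10 of the 11 groups, Idi1, Fdft1 and Insig1 in 9 and Hmgcs1 in 8. Scap and Npc2 were lowest on day 1 in 10 groups, and Srebf2 and Abcg1 in 9. Day 1 lay above the group mean by 0.41 in Insig1 and 0.38 in Msmo1, and below it in Abcg1 (-0.33), Scap (-0.31) and Srebf2 (-0.23).

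**Figure D4:**
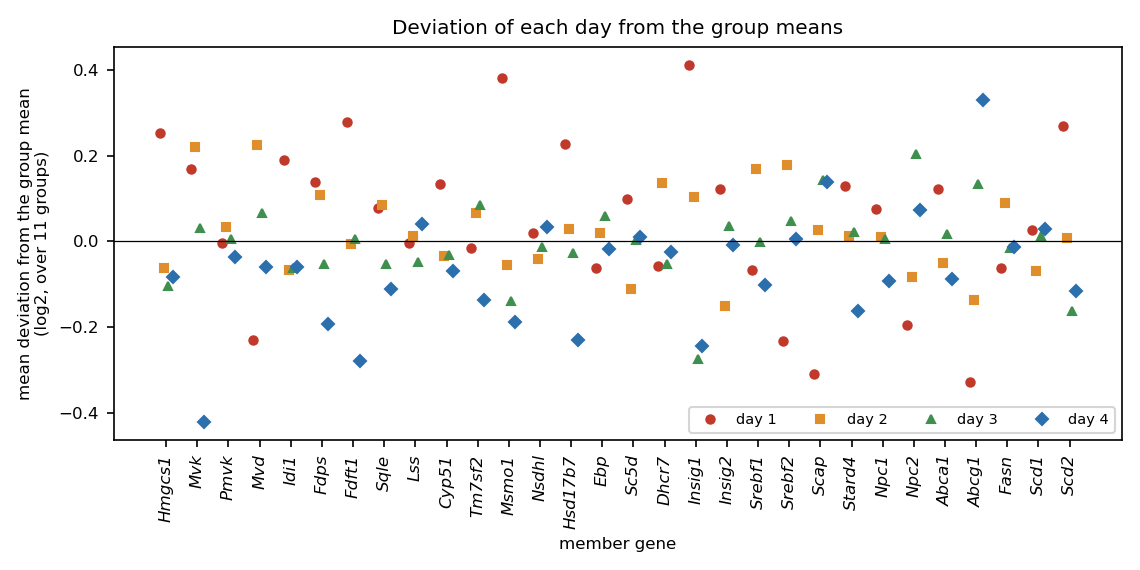
Mean deviation of each day from the group mean over the 11 groups (log2), 4 points per member. Day 1 is the highest point for Insig1, Msmo1 and Hmgcs1 and the lowest for Abcg1, Scap and Srebf2, and day 4 is the lowest for Mvk.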

How the data were processed

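RNA of 44 CH12.LX cultures was measured on 1 Affymetrix Mouse430_2 array each. The authors' deposited values are linear intensities, for which the submitters' processing notes name GCOS 1.0. All columns share a mean of 500.0 once 2% is trimmed at each end, so they hold a scaling of each array made before deposit. The sources used here name no further step.

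Column medians of log2(value + 16) spanned 0.91, over the limit of 0.2, so values were quantile normalized before log2(value + 16) was taken. Of 45101 probe sets, 64 controls were left out, 34945 have 1 gene symbol and 932 have several. Probe sets with several symbols name no gene here. A gene was represented by its probe set of highest mean, and kept if its highest group mean exceeded the median of all values (6.21). No probe set's level was set against another's.

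limma 3.58.1 (R 4.3.3) fitted 11 group means over all 44 arrays, with two-sided moderated tests and Benjamini-Hochberg adjustment over 11969 genes per comparison. The scripts were tested on simulated data. The p-values reflect the spread among cultures of a single line. The design text puts replicates on separate days, and the replicate number was read as that day: deviations of same-numbered TCDD and DMSO arrays correlated with r above 0.1 in 18 of 20 pairs (median over all groups 0.176, against -0.0655 for other numbers). The replicate block is given where it changes a count by over 1.5 times. Members and lists were chosen with earlier results of these data known, and all members are named whatever their values. Values in every array are shown for called members whose largest change ranks among the first 2 of their role, and for those called with TCDD; other arrays shown were chosen after their values were seen. Alternatives were a fixed or random replicate block, a fit of only the arrays compared, other filters, values as deposited, all or averaged probe sets, an intensity trend, pseudocounts of 1 and 64, and each day left out. The test of the day and the omission of 4 arrays were added after seeing the data. Python 3.11.15 with matplotlib 3.10.9 drew the figures.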

Additional observations from a re-analysis of the deposited data

Results flagged for a closer look

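In 23 of 330 pairs of a member and a group (6.97%) 1 array stood far from the other 3, past Dixon's limit for the gap to the nearest array as a share of the group's range, and chance alone marks about 1 in 20 such groups. Values are log2 signals. On day 1, Hmgcs1 was at 11.50 in TCDD cells at 8 h (others 10.98 to 11.05) and at 12.27 in DMSO cells at 36 h. Fdft1 was at 9.921 in DMSO cells at 8 h and at 10.98 at 36 h, and Msmo1 was at 11.23 in TCDD cells at 12 h and at 11.24 in DMSO cells at 36 h. Cyp51 was at 12.25 in untreated cells on day 1 (others 11.74 to 11.78). All of these were high arrays, and Npc1 was high on day 1 in TCDD cells at 24 h (8.399). Low arrays of day 1 were those of Srebf2 in TCDD cells at 36 h (10.14), DMSO cells at 48 h (10.51) and untreated cells (11.02), and of Tm7sf2 (7.912) and Nsdhl (9.799) in TCDD cells at 36 h.

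On other days, Mvk was at 6.13 in DMSO cells at 12 h on day 4 (others 7.524 to 7.704), which is 1 of the arrays standing apart. Nsdhl (9.368) and Insig2 (10.31) were low in DMSO cells at 48 h on day 2, another of these arrays. Pmvk was high in untreated cells on day 3 (9.136) and Tm7sf2 low on day 4 (7.092), both on arrays standing apart as well. Sqle was low in DMSO cells at 8 h on day 4 (10.57), Nsdhl in TCDD cells at 12 h on day 3 (9.566), and Npc1 in DMSO cells at 12 h on day 2 (7.906) and at 48 h on day 4 (8.27). Sc5d was high in TCDD cells at 48 h on day 3 (10.77).

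The difference between TCDD and DMSO cells changed over the 5 times for Sqle (F test in limma, adjusted p = 0.00381) and Insig2 (adjusted p = 0.0299), in the report above with their values. The cause of none of these was tested.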

How the results depend on the processing

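No called change of a member turned its sign under any of 16 alternatives. Of the calls, 254 were lost over all alternatives together and 1618 were kept; the settings with the highest numbers lost were only the arrays compared (47), leaving out day 3 (40) and leaving out day 2 (32). Counts over all genes moved under the alternatives too. For TCDD at 12 h they went from 1103 to 1950 with the fixed replicate block and to 403 with only the arrays compared. The counts of members called moved as follows, and the cause was not tested. For TCDD at 8 h (1 member), 3 were called with the fixed and 3 with the random replicate block, 3 without the 4 arrays standing apart, and 2 each with the stricter filter, the values as deposited, averaged probe sets, a pseudocount of 1 and an intensity trend. At 12 h (5), 12 were called with the fixed and 11 with the random replicate block, and 1 with only the arrays compared; leaving out a day gave 1 to 4. At 24 h (3) the replicate block gave 11 and its random form 9, and leaving out a day gave 0 to 3. At 36 h (1) it gave 4 and 3, averaged probe sets 0, the set without 4 arrays 2, and leaving out a day 0 to 1. Without day 1 the 1 call was Cyp51, higher, in place of Fdps. At 48 h (2) both blocks gave 5, only the arrays compared 1, and leaving out a day 0 to 3. The interaction (2) gave 11 and 10 with the replicate block, 4 with only the arrays compared, 1 without a filter and 0 to 1 without a day. For DMSO against untreated cells, only the arrays compared gave 12 at 12 h (20) and 7 at 24 h (12), and leaving out a day gave 5 to 11 at 24 h. For DMSO at 12 h against 8 h (4), the replicate block gave 9 and its random form 8, only the arrays compared 0, averaged probe sets 2, the set without 4 arrays 7, and leaving out a day 1 to 6. At 24 h against 12 h (11), only the arrays compared gave 5 and leaving out a day 6 to 10. At 36 h against 24 h (1), the replicate block gave 5 and 3, leaving out any 1 day 0, and 2 were called with only the arrays compared, the stricter filter, averaged probe sets, an intensity trend and without 4 arrays. At 48 h against 36 h (6), both replicate blocks gave 11, only the arrays compared 0, and leaving out a day 2 to 4. The test of the day called 20 members and 13 with averaged probe sets. The number of arrays, 4 per group, limits which differences could be detected.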
